A study of Mus musculus with 12 samples.

Results

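Nucleotide excision repair (NER) was followed in mouse liver through 10 genes selected by name: Xpa, Ercc8, Ercc6, Uvssa, Xpc, Ddb2, Ercc1, Ercc4, Ercc5 and Ercc3. They are 10 of the 57180 genes in the deposited tables. Each name marks a single row, and all 10 were among the 19350 genes that passed the filter on low counts. RNA from 12 livers was sequenced, 3 from each combination of genotype and sex, written here as Het_F, Het_M, KO_F and KO_M, with the mouse number added where a single liver is meant. All 12 mice were Csa-/-, that is, deficient in the gene that the tables list as Ercc8, and all had received AAV9-CSA, an adeno-associated virus that carries human CSA under a ubiquitous promoter, by injection into the brain ventricles as newborns. The Het mice were Csa-/-;Xpa+/-. The KO mice are written as Csa-/-;Xpa+/+ in the labels and in the sequencing methods of the paper, whereas its results describe Csa-/- Xpa-/- (CX) mice whose livers were taken at the humane endpoint and compared with treated littermates of matched age, which were healthy. Neither wild-type nor untreated livers are among the 12, so the Xpa genotype and the disease at endpoint cannot be told apart. The age of each mouse, and the parts of Xpa and Csa that were deleted, were not given in the sources used here, which put treated CX mice at endpoint at several months of age. The libraries held between 30044781 and 43634046 counts.

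NER cuts out a short stretch of DNA around a bulky lesion and fills the gap from the intact strand. Lesions are found by either of 2 routes. In transcription-coupled repair, RNA polymerase II stalls at the lesion, CSB (Ercc6) binds it, CSA (Ercc8) joins as the substrate receptor of a ubiquitin ligase, and UVSSA brings in the TFIIH complex. In global genome repair, XPC finds the distortion of the helix, with the help of DDB2 at UV lesions. Both routes then share XPB (Ercc3), a TFIIH subunit that opens the DNA, XPA, which checks the damage and places the nucleases, and the nucleases themselves, XPG (Ercc5) on the 3′ side and the XPF-ERCC1 pair (Ercc4 and Ercc1) on the 5′ side. In liver, as in other tissues whose cells seldom divide, the transcription-coupled route protects expressed genes.

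Across both sexes, 5 of the 10 genes were higher in KO than in Het livers (Ercc8, Uvssa, Ercc3, Ddb2 and Ercc4) and 1 was lower (Xpa). The remaining 4 (Ercc6, Xpc, Ercc1 and Ercc5) did not pass the test. Of all 19350 genes, 11.8% were called higher and 9.8% lower in the same comparison, so changes of this kind were common in these livers. A gene was called when its Benjamini-Hochberg adjusted p over all genes, from the edgeR quasi-likelihood test, was below 0.05. The tests within each sex came from the same fit of all 12 livers. Their p-values thus use a spread estimated over both sexes, and leaving out a mouse of one sex can move a call in the other. In females 3 of the 10 genes were called higher (Ercc8, Uvssa and Ercc3) and Xpa was called lower, against 5.15% and 4.5% of all genes. In males 2 were called higher (Ercc8 and Ercc3) and Xpa lower, against 4.11% and 2.8% of all genes. The median log2 fold change of the 10 genes was 0.32, beside 0.02 for all genes.

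**Figure D1:**
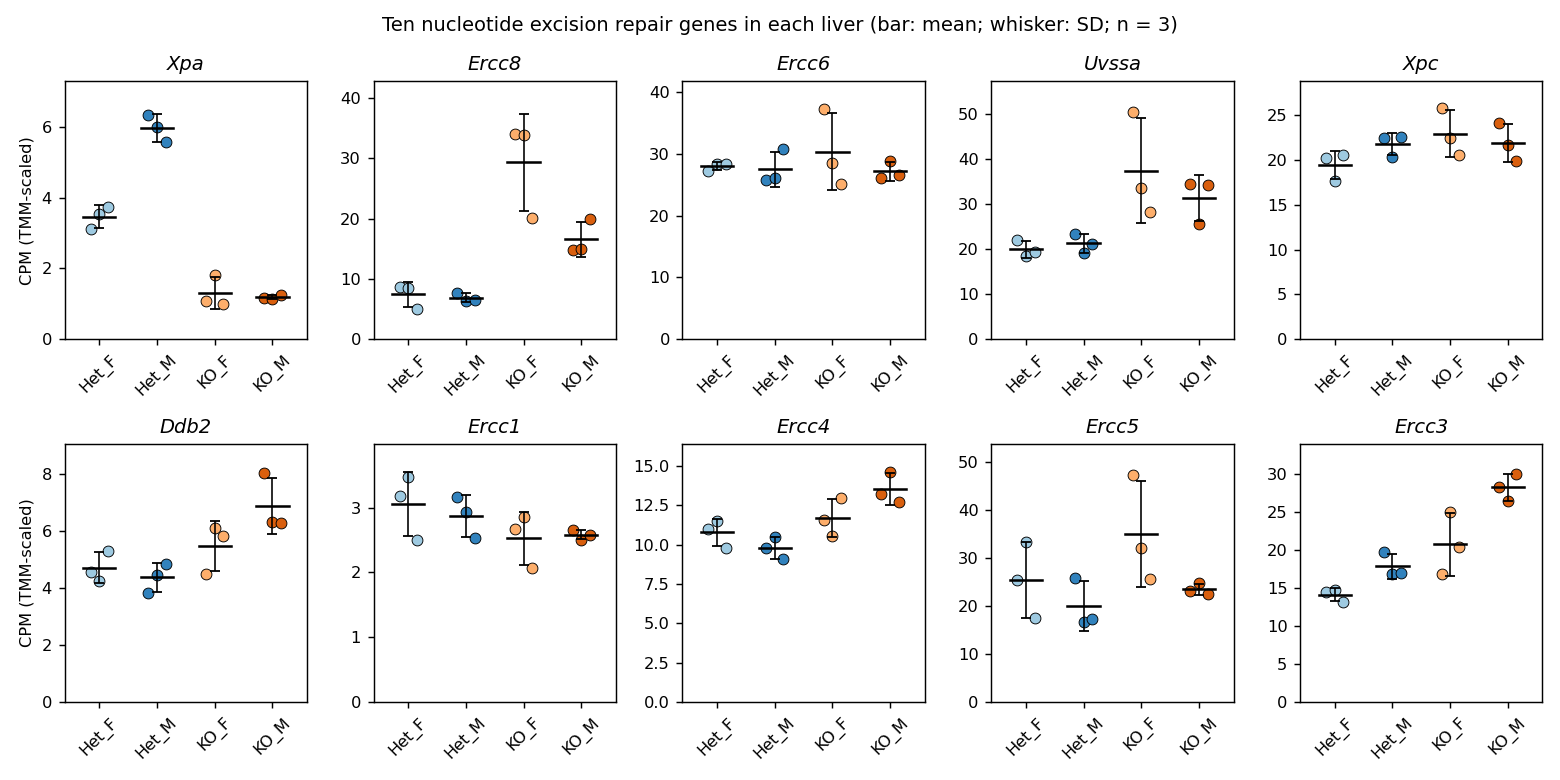
Abundance of each of the 10 genes in each of the 12 livers, as TMM-scaled CPM (read count relative to library size) on a linear axis from 0; points are mice, bars are group means and whiskers are SDs (n = 3). All 6 KO livers lie below all 6 Het livers for Xpa and above them for Ercc8 and Uvssa, whereas the groups overlap for the other 7 genes.

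Xpa is the gene by which the groups were bred to differ. It was lowest in the KO livers. In Het_F livers Xpa stood at 3.10, 3.55 and 3.74 CPM (read count relative to TMM-scaled library size), in Het_M livers at 6.34, 5.99 and 5.57 CPM, in KO_F livers at 1.08, 1.83 and 0.992 CPM, and in KO_M livers at 1.18, 1.14 and 1.25 CPM. The groups of the 2 genotypes did not overlap in either sex. How many of all genes separate in this way was not counted, here or in any later comparison of 3 with 3 livers. The log2 fold change was -1.83 (SE 0.17, edgeR adjusted p = 6.26e-05) over both sexes, -1.38 (SE 0.23, adjusted p = 0.00733) in females and -2.28 (SE 0.24, adjusted p = 0.000453) in males. The direction goes against the label Xpa+/+ of the KO mice, which would carry more functional alleles than the Het mice. The names KO and Het are used here only as the labels give them.

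Xpa was not absent from the KO livers. Between 35 and 59 reads were assigned to it in each, beside 110 to 190 in the Het livers, so that mean KO abundance was 37.6% of Het in females and 19.9% in males. The counts add up reads over the whole gene (GRCm39 chr4:46154887-46196600, minus strand), so they do not show which exons those reads come from, and reads outside a deleted part would not test the allele. The effective length of Xpa, the length that the quantifier assigned to the mix of transcripts it saw, was 0.832 to 1.08 times the Het mean in KO livers and 0.962 to 1.03 times in Het livers, and the groups overlapped. The lowest of these values, in KO_F_108, rests on 35 reads.

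The Xpa level also differed between Het males and females, at 5.96 ± 0.39 (SD, n = 3) and 3.46 ± 0.33 (SD, n = 3) CPM, without overlap. This difference did not pass the edgeR test over all genes (log2 fold change of males over females 0.77, SE 0.23, unadjusted p = 0.00523, adjusted p = 0.189). DESeq2, the other count test that was run, called it at an adjusted p = 0.0175. In KO livers the sexes overlapped, at 1.19 ± 0.056 (SD, n = 3) CPM in males and 1.30 ± 0.46 (SD, n = 3) CPM in females. The genotype difference was larger in males by -0.90 on the log2 scale (SE 0.33), which did not pass the interaction test (unadjusted p = 0.0189, adjusted p = 0.501).

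Ercc8, which encodes CSA, showed the largest rise of the 10 genes. Every mouse was Csa-/-, so this is a difference between animals of the same Csa genotype. In Het_F livers Ercc8 stood at 8.68, 8.55 and 5.10 CPM, in Het_M livers at 7.74, 6.38 and 6.52 CPM, in KO_F livers at 33.997, 33.8 and 20.1 CPM, and in KO_M livers at 14.8, 14.98 and 19.96 CPM. The lowest KO liver was thus above the highest Het liver. The log2 fold change was 1.62 (SE 0.17, edgeR adjusted p = 0.000173) over both sexes, 1.97 (SE 0.25, adjusted p = 0.00228) in females and 1.26 (SE 0.25, adjusted p = 0.0128) in males. In males the call was lost without Het_M_125 (adjusted p = 0.0595) or Het_M_137 (adjusted p = 0.0527), while the fold change stayed at 1.20 and 1.21.

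Among KO livers, Ercc8 was higher in females than in males, at 29.3 ± 8.0 (SD, n = 3) against 16.6 ± 2.9 (SD, n = 3) CPM, without overlap. The difference was -0.82 on the log2 scale (males over females, SE 0.24, unadjusted p = 0.00514) and did not pass correction (edgeR adjusted p = 0.263). Without KO_F_123 it passed narrowly (-1.05, adjusted p = 0.0496). Among Het livers the sexes overlapped (-0.11, SE 0.24, adjusted p = 0.927).

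The length assigned to Ercc8 also differed between the genotypes, though the transcripts or exons behind its reads were not examined. Its effective length was 0.559 to 0.755 times the Het mean in the 6 KO livers and 0.947 to 1.02 times in the 6 Het livers, so the genotypes did not overlap. The mean log2 difference was -0.64. Among the 17944 genes with a value in every liver, 0.245% had a lower difference. For the other 9 genes the genotypes overlapped, with mean log2 differences between -0.08 and 0.09. How many of all genes separate the genotypes by length was not counted. Because TPM divides by that length, the rise of Ercc8 was larger on the TPM scale: Het livers ranged from 1.94 to 3.46 TPM and KO livers from 7.02 to 22.4 TPM. With counts rebuilt from TPM and scaled by mean transcript length, the edgeR log2 fold change was 2.24 over both sexes. Reads of the human CSA sequence carried by the vector and reads of mouse Ercc8 cannot be told apart in a per-gene count, and vector RNA was not measured here.

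**Figure D2:**
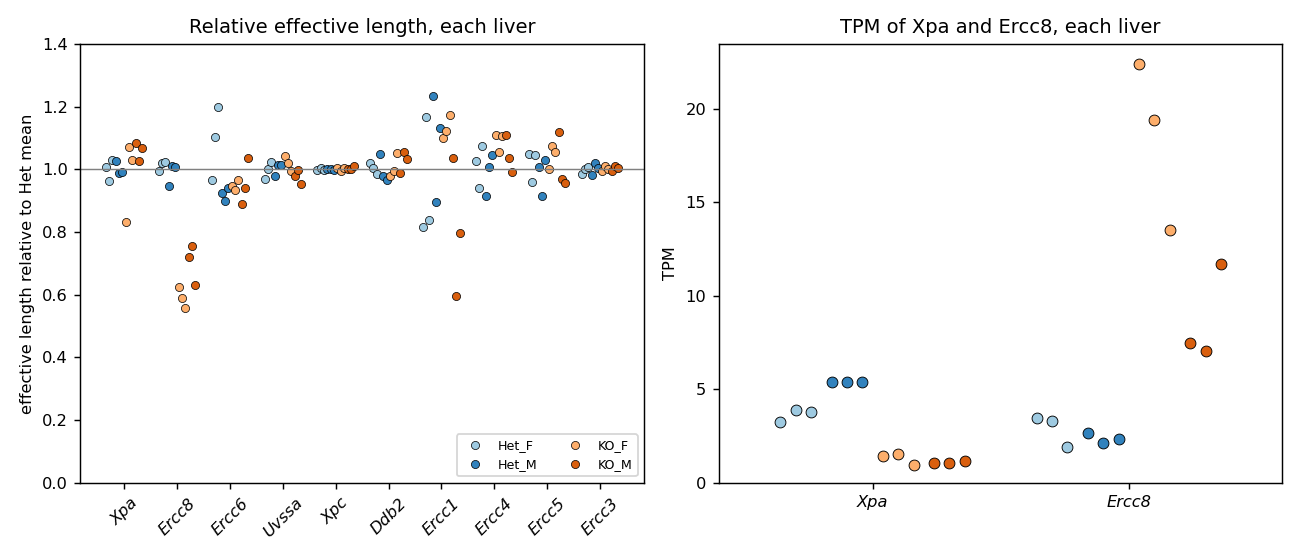
Left, effective length of each gene in each liver, relative to the mean of the 6 Het livers (1 on the axis); right, abundance of Xpa and Ercc8 in each liver, as TPM (abundance per transcript length, relative to the whole library). Points are mice. Ercc8 alone of the 10 genes separates the genotypes by length, with KO livers at 0.559 to 0.755. The share of all genes that separate by length was not counted.

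Ercc8 (GRCm39 chr13:108295233-108331898, plus strand) shares its upstream edge with Ndufaf2, an assembly factor of respiratory complex I that is read from the opposite strand. Only 43 bases separate the outermost annotated starts, of which 29 are G or C, and no annotated exon enters them. They are shown because the counts of the genes on either side differed in opposite directions. Reads of the vector cannot be told apart from those of Ercc8, so its rise need not come from this locus. Whether the interval has a part in either difference was not tested. The plus strand, from the Ndufaf2 side to the Ercc8 side, at GRCm39 chr13:108295190-108295232, reads:
Ndufaf2-Ercc8 interval: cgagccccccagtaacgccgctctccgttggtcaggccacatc
To the left of this interval, Ndufaf2 fell in KO livers, from 3.99 ± 0.43 (SD, n = 6) to 2.77 ± 0.30 (SD, n = 6) CPM (log2 fold change -0.52, SE 0.14, edgeR adjusted p = 0.0197), and its genotypes did not overlap. To the right, Ercc8 rose. Over both sexes Ndufaf2 stayed called under all 24 alternative settings, with adjusted p from 0.00201 to 0.0483. By sex edgeR called it in neither, at -0.45 (adjusted p = 0.145) in females and -0.58 (adjusted p = 0.0953) in males.

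The other genes of the transcription-coupled route behaved differently from each other. Uvssa, whose product brings TFIIH to the stalled polymerase, stood at 22.0, 18.5 and 19.4 CPM in Het_F livers, 23.4, 19.1 and 21.2 CPM in Het_M livers, 50.5, 33.5 and 28.3 CPM in KO_F livers, and 34.5, 25.5 and 34.2 CPM in KO_M livers. All 6 KO livers were above all 6 Het livers, a pattern that 4.72% of all genes shared in this direction and 4.64% in the other. The log2 fold change was 0.73 (SE 0.14, edgeR adjusted p = 0.00465) over both sexes and 0.91 (SE 0.20, adjusted p = 0.0206) in females. In males it was 0.56 (SE 0.20, adjusted p = 0.118), which did not pass. The female call was lost without Het_F_115 (adjusted p = 0.0590) or Het_F_126 (adjusted p = 0.0611), or without KO_F_108 (adjusted p = 0.0575). It was also lost in the edgeR fit of the female livers alone (adjusted p = 0.0808). By limma the adjusted p was 0.0945 on log2(TPM + 1) and 0.0819 on log2(TPM + 0.1). The call in males was gained without KO_F_108 (adjusted p = 0.0355), a female, while the male fold change stayed at 0.55.

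Ercc6, which encodes CSB, the first factor of the route, ranged from 25.7 to 30.7 CPM in Het livers and from 25.1 to 37.3 CPM in KO livers, and the groups overlapped. Its log2 fold change was 0.05 (SE 0.10, edgeR adjusted p = 0.768). The highest value came from KO_F_108, and without that mouse the value was -0.05 (adjusted p = 0.699). The 3 genes of the route thus gave a large rise, a smaller rise and no call.

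In the global genome route, Xpc was not called and Ddb2 was called weakly. Xpc, the lesion sensor, ranged from 17.6 to 22.5 CPM in Het livers and from 19.9 to 25.8 CPM in KO livers (log2 fold change 0.12, SE 0.09, edgeR adjusted p = 0.341). Ddb2, the small subunit of the UV-damage sensor, stood at 4.56, 4.26 and 5.31 CPM in Het_F, 3.84, 4.46 and 4.86 CPM in Het_M, 4.49, 6.10 and 5.84 CPM in KO_F and 8.04, 6.32 and 6.30 CPM in KO_M livers. The genotypes overlapped in females and did not overlap in males. Over both sexes the log2 fold change was 0.43 (SE 0.13, edgeR adjusted p = 0.0366).

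The Ddb2 call was close to the threshold. It was lost in 14 of 24 alternative settings, among them the leaving out of Het_F_111 or Het_F_115, Het_M_119 or Het_M_125, KO_F_112 or KO_F_123 and KO_M_118 or KO_M_136, in turn, with adjusted p between 0.0502 and 0.103 and fold changes between 0.36 and 0.45. By sex it was called in neither, with log2 fold changes of 0.21 (SE 0.19, adjusted p = 0.488) in females and 0.65 (SE 0.19, adjusted p = 0.0603) in males. In males the call was gained without KO_F_108 (0.64, adjusted p = 0.0418).

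Of the genes that both routes share, Ercc3 was called in both sexes. Its product, XPB, is the TFIIH translocase that opens the DNA at the lesion and at promoters. Ercc3 stood at 14.5, 14.7 and 13.2 CPM in Het_F, 19.7, 16.9 and 17.0 CPM in Het_M, 16.9, 25.05 and 20.4 CPM in KO_F and 28.3, 26.5 and 30.1 CPM in KO_M livers. Within each sex every KO liver was above every Het liver, while the liver of KO_F_108 lay below all 3 Het males. The log2 fold change was 0.61 (SE 0.10, edgeR adjusted p = 0.00224) over both sexes, 0.55 (SE 0.14, adjusted p = 0.0355) in females and 0.66 (SE 0.14, adjusted p = 0.0200) in males.

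The Ercc3 call over both sexes held under all 24 alternatives, with adjusted p up to 0.00796. The female call was lost in 10 of 24 alternatives. By edgeR it was lost without Het_F_111 (adjusted p = 0.0804), Het_F_115 (0.0658) or Het_F_126 (0.102), without KO_F_112 (0.109) and without KO_M_118 (0.0555). It was also lost in the fit of the female livers alone (0.126), with length-scaled counts (0.0501) and without the filter on low counts (0.0547). Limma gave 0.0694 on log2(TPM + 1) and 0.0646 on log2(TPM + 0.1). The male call was lost without Het_M_125 (0.0813) or Het_M_137 (0.0727) and without KO_M_118 (0.0674) or KO_M_136 (0.0677). Fold changes without each of these mice stayed between 0.40 and 0.65.

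Of the 3 incision nuclease genes, 1 (Ercc4) was called. It encodes XPF, the catalytic subunit of the 5′ nuclease. Ercc4 stood at 11.02, 11.5 and 9.81 CPM in Het_F, 9.78, 10.47 and 9.08 CPM in Het_M, 11.5, 10.6 and 12.98 CPM in KO_F and 13.2, 14.6 and 12.7 CPM in KO_M livers. The genotypes overlapped in females and did not overlap in males, a pattern whose share over all genes was not counted. The log2 fold change of Ercc4 was 0.29 (SE 0.09, edgeR adjusted p = 0.0412) over both sexes, 0.12 (SE 0.13, adjusted p = 0.596) in females and 0.46 (SE 0.13, adjusted p = 0.0542) in males. The call over both sexes was lost in 19 of 24 alternatives, the unrounded counts included (adjusted p = 0.0503), and without each mouse in turn other than KO_F_112, where adjusted p ran from 0.0541 to 0.108 and the fold changes from 0.24 to 0.31. With length-scaled counts the value was 0.18 (adjusted p = 0.267), with scaled counts 0.19 (adjusted p = 0.252), and by limma 0.15 (adjusted p = 0.318) on log2(TPM + 1) and 0.20 (adjusted p = 0.299) on log2(TPM + 0.1).

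Ercc1, the partner that binds XPF to DNA, moved the other way in value and was not called. It ranged from 2.51 to 3.47 CPM in Het livers and from 2.06 to 2.85 CPM in KO livers (log2 fold change -0.21, SE 0.15, edgeR adjusted p = 0.328). Ercc5, which encodes the 3′ nuclease XPG, was not called either. It ranged from 16.8 to 33.3 CPM in Het livers and from 22.5 to 47.3 CPM in KO livers (log2 fold change 0.35, SE 0.19, adjusted p = 0.206).

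**Figure D3:**
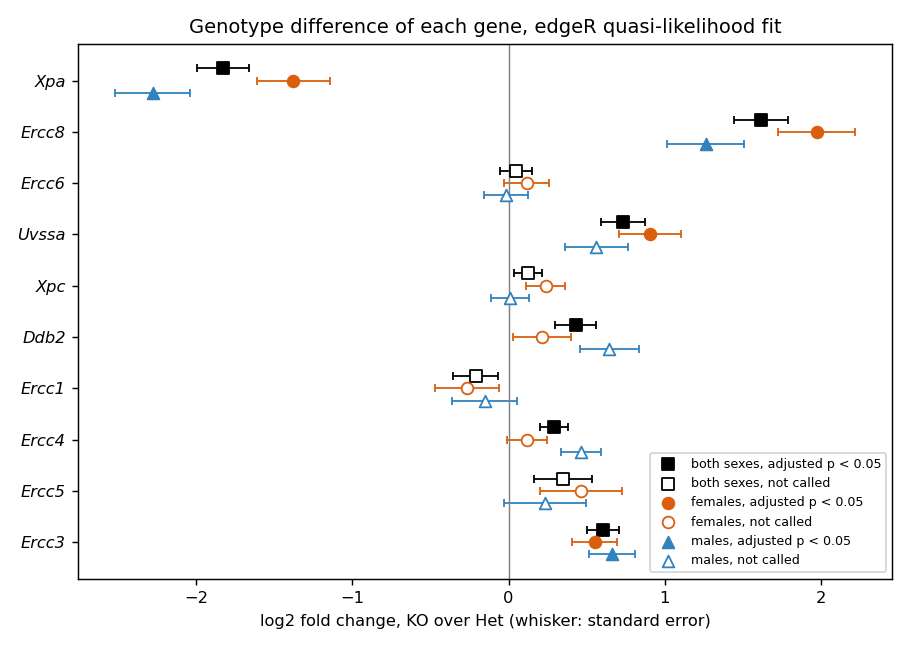
Log2 fold change of KO over Het for each of the 10 genes, over both sexes (squares), in females (circles) and in males (triangles), with standard errors as whiskers. Filled symbols passed an adjusted p of 0.05 over all 19350 genes, and Xpa, Ercc8 and Ercc3 are filled in all 3 comparisons.

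Mouse KO_F_108 gave the highest CPM of the 12 livers for 5 of the 10 genes (Ercc8, Ercc6, Uvssa, Xpc and Ercc5), and no other liver did so for more than 1. The share of all genes for which this liver was highest was not counted. The pattern therefore cannot be called particular to the repair genes. Without KO_F_108, Xpa (-1.78, adjusted p = 0.000165) and Ercc8 (1.54, adjusted p = 0.000439) remained called over both sexes by edgeR. So did Uvssa (0.58, adjusted p = 0.00449), Ercc3 (0.66, adjusted p = 0.000851) and Ddb2 (0.48, adjusted p = 0.0249). The Uvssa value was 0.73 with that mouse. The Ercc4 call was lost (0.28, adjusted p = 0.0671). Ercc5 moved from 0.35 to 0.20 and Xpc from 0.12 to 0.07, and neither was called.

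Differences between males and females were not called for any of the 10 genes. In the interaction test, which asks whether the genotype difference differs between the sexes, 0 of the 10 genes were called by edgeR, beside 0.0465% of all genes, and 1 (Xpa) had an unadjusted p below 0.05. No gene of the 10 was called there by DESeq2 or limma. In Het livers 0 of the 10 differed between the sexes by edgeR, beside 0.811% of all genes, with 2 below an unadjusted p of 0.05 (Xpa and Ercc3). DESeq2 called 1 of them (Xpa), and limma called 0. In KO livers 0 of the 10 differed, beside 0.0568% of all genes, with 2 below an unadjusted p of 0.05 (Ercc8 and Ercc3), and neither DESeq2 nor limma called any. Ercc3 was higher in males in both genotypes in value, by 0.34 (SE 0.14, adjusted p = 0.430) in Het and 0.45 (SE 0.14, adjusted p = 0.287) in KO livers.

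On the TPM scale, which divides by length and so allows genes to be set side by side, the 10 genes were all expressed at low levels and within a narrow range in Het livers. The mean TPM over 6 Het livers ran, from the top, Ercc5 (5.66 ± 2.0 SD), Ercc6 (5.21 ± 0.56), Ercc3 (4.54 ± 0.39), Xpa (4.53 ± 0.99), Xpc (4.17 ± 0.33), Ercc8 (2.64 ± 0.63), Ercc4 (2.61 ± 0.43), Uvssa (2.48 ± 0.29), Ercc1 (2.30 ± 0.56) and Ddb2 (1.86 ± 0.34). Only the step from Xpc to Ercc8 separated neighbours in this order without overlap. In KO livers Ercc8 stood first, at 13.6 ± 6.2 TPM (SD, n = 6), and Xpa last, at 1.20 ± 0.23 TPM (SD, n = 6). The TPM of Ercc8 is raised there by its shorter effective length. Its log2 ratio of mean KO to mean Het was 2.36 in TPM and 1.68 in CPM. Reads of the vector cannot be told apart from those of Ercc8 in this rank either. No pair of neighbours in the KO order was free of overlap.

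The wider pathway was read through 43 further genes, grouped by role, all of which were tested. Of these, 1 was called higher (Pold4), 2 were called lower (Rad23b and Rpa3), and 40 were not called, beside 11.8% of all genes called higher and 9.8% lower. Their median log2 fold change was -0.03, beside 0.02 for all genes. By sex, Pold4 was the single gene called in females, beside 5.15% of all genes called higher and 4.5% lower, and in males, beside 4.11% and 2.8%. Among 6 partners of repair at the stalled polymerase (such as Elof1, Xab2 and Tcea1), 4 subunits of the CRL4 ubiquitin ligase in which CSA and DDB2 act, and 9 further TFIIH subunits, no gene was called. The TFIIH subunits had a median log2 fold change of 0.01, beside 0.61 for Ercc3, the subunit among the 10. Ercc2, the other TFIIH helicase, stood at 11.1 ± 1.0 (SD, n = 6) CPM in Het and 13.5 ± 2.9 (SD, n = 6) CPM in KO livers (0.27, SE 0.12, edgeR adjusted p = 0.146). Unadjusted p below 0.05 was reached by Stk19 (0.0360) and Cdk7 (0.0270) in these groups.

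Rad23b, which stabilises XPC, was the called gene among 3 partners of damage recognition. It ranged from 124 to 150.1 CPM in Het and from 90.2 to 119.6 CPM in KO livers, without overlap (log2 fold change -0.37, SE 0.08, edgeR adjusted p = 0.00878). Rpa3, the smallest subunit of the RPA complex that coats single-stranded DNA, fell from 2.22 ± 0.34 (SD, n = 6) to 1.495 ± 0.34 (SD, n = 6) CPM (-0.57, SE 0.17, adjusted p = 0.0326), and its groups overlapped. The Rpa3 call was lost in 9 of 24 alternatives, 8 of them the leaving out of Het_F_111 or Het_F_126, Het_M_119 or Het_M_125, KO_F_108, or KO_M_118, KO_M_122 or KO_M_136, with adjusted p between 0.0501 and 0.0685.

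Pold4, the smallest subunit of DNA polymerase delta, was called among 18 genes of gap filling and ligation. It ranged from 5.95 to 9.44 CPM in Het livers and from 11.6 to 23.99 CPM in KO livers, without overlap (log2 fold change 1.06, SE 0.17, edgeR adjusted p = 0.00162), with adjusted p = 0.0155 in females and 0.0335 in males. The other polymerase delta subunits were not called, at -0.01 (Pold1, adjusted p = 0.974), -0.37 (Pold2, adjusted p = 0.202) and 0.16 (Pold3, adjusted p = 0.299). Polk stood at 29.2 CPM in Het_F_115 and between 4.20 and 7.20 CPM in the other 11 livers, and was not called.

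**Figure D4:**
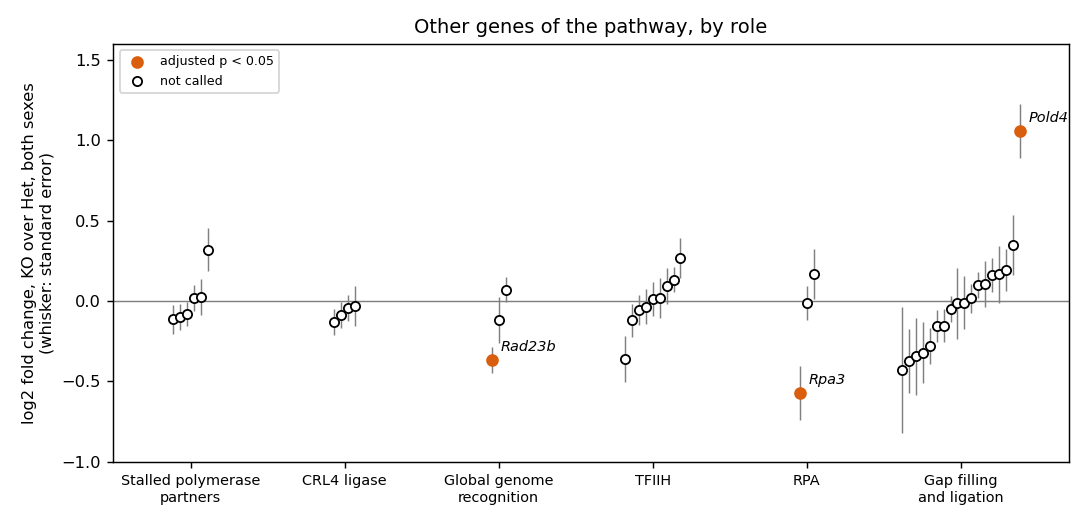
Log2 fold change of KO over Het over both sexes for the 43 further genes of the pathway, grouped by role, with standard errors as whiskers. Filled points passed an adjusted p of 0.05, and they are Rad23b (-0.37), Rpa3 (-0.57) and Pold4 (1.06).

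Genes near Xpa and Ercc8 were examined because these are the loci of the altered alleles. All 12 mice were Csa-/-, so of these 2 loci only Xpa was bred to differ between KO and Het. The comparison therefore cannot show an effect of the Csa allele on the neighbours of Ercc8. Within 500 kb of Xpa, 15 genes were tested, of which 2 were higher, 1 was lower and 12 were not called, beside 11.8% of all genes called higher and 9.8% lower. Coro2a, an actin-binding protein, rose from 1.59 ± 0.39 (SD, n = 6) to 3.06 ± 0.74 (SD, n = 6) CPM without overlap (log2 fold change 0.94, SE 0.20, edgeR adjusted p = 0.00693). Tbc1d2, a regulator of Rab GTPases, ranged from 1.07 to 1.66 CPM in Het and from 1.89 to 11.7 CPM in KO livers, the highest being KO_F_108 (1.38, SE 0.35, adjusted p = 0.0169). Without that mouse the Tbc1d2 value was 0.83 (adjusted p = 0.00833). The calls of Coro2a (adjusted p = 0.0604 and 0.0609) and Tbc1d2 (adjusted p = 0.139 and 0.0561) were lost by limma on log2(TPM + 1) and log2(TPM + 0.1). Tstd2 was lower by -0.28 (SE 0.08, adjusted p = 0.0275). By sex, edgeR called Coro2a only in males (adjusted p = 0.0395, and 0.0854 in females). Tbc1d2 was called only in females (0.0215, and 0.564 in males). Tstd2 was called in neither sex (0.403 in females and 0.0523 in males). The Tstd2 call was lost in 10 of 24 alternatives, including the leaving out of Het_M_137, KO_F_112, KO_M_118 or KO_M_136, with adjusted p from 0.0547 to 0.0648. Ncbp1, which overlaps the end of Xpa on the opposite strand, was not called (-0.05, SE 0.12, adjusted p = 0.809).

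Within 500 kb of Ercc8, 8 genes were tested, of which 1 was higher, 2 were lower and 5 were not called, beside the same 11.8% and 9.8% of all genes. Besides Ndufaf2, Smim15 fell from 11.6 ± 1.4 (SD, n = 6) to 8.32 ± 0.91 (SD, n = 6) CPM without overlap (-0.48, SE 0.10, edgeR adjusted p = 0.00680). By sex, Smim15 was called in females (adjusted p = 0.0157) and not in males (adjusted p = 0.270). The Smim15 call was lost with length-scaled (-0.32, adjusted p = 0.0803) and scaled counts (-0.31, adjusted p = 0.0722) and by limma (-0.25, adjusted p = 0.138, and -0.29, adjusted p = 0.134). Elovl7, a fatty acid elongase whose start lies 55.7 kb beyond that of Ercc8, ranged from 0.325 to 1.33 CPM in Het and from 0.580 to 5.02 CPM in KO livers (1.06, SE 0.31, adjusted p = 0.0316). By sex, Elovl7 was called in females (adjusted p = 0.0438) and not in males (adjusted p = 0.483). The Elovl7 call was lost in 10 of 24 alternatives. Of these, 6 left out Het_F_111 or Het_F_126, Het_M_119 or Het_M_125, KO_F_108 or KO_M_118, with adjusted p from 0.0650 to 0.0892. Over both sexes, the log2 fold changes of all tested neighbours were smaller in size than those of Xpa and Ercc8. Within each sex this did not hold. In females Tbc1d2 was at 2.22 (edgeR adjusted p = 0.0215), beside 1.97 for Ercc8 and -1.38 for Xpa. Elovl7, at 1.56 (adjusted p = 0.0438), exceeded Xpa in size there. In males Tmod1, another neighbour of Xpa, was at 2.15 (adjusted p = 0.0887, not called), beside 1.26 for Ercc8 and -2.28 for Xpa.

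**Figure D5:**
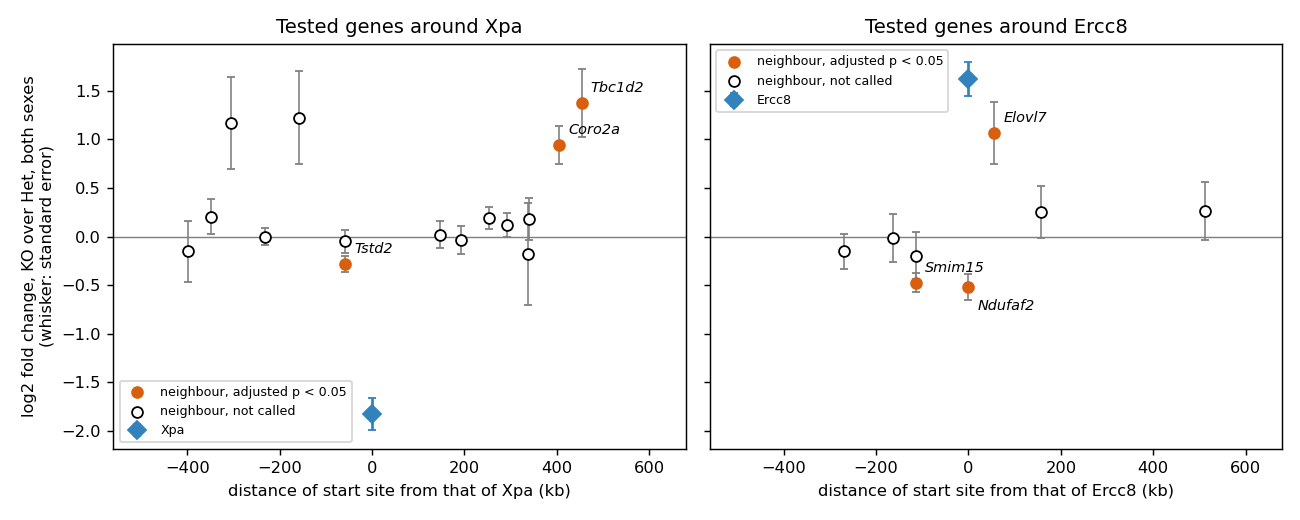
Log2 fold change of KO over Het over both sexes (standard errors as whiskers) of the tested genes around Xpa (left) and Ercc8 (right), by the distance of their start sites along the chromosome in kb. Xpa (-1.83) and Ercc8 (1.62) are diamonds and called neighbours are filled, with Ndufaf2 (-0.52) beside Ercc8.

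Genes outside the 10 were ranked by how closely they followed Xpa or Ercc8 across the 12 livers. Likeness was measured as the distance between log2 CPM profiles scaled to mean 0 and SD 1 over the 12 livers, so that it carries the genotype difference as well as the spread within groups. Nearest to Xpa were Atrnl1 (distance 0.799), Osbpl8 (0.809) and Mup15 (0.834), beside a median distance of 4.77 over all genes. Mup15 belongs to a family of near-identical genes, among which reads can be split. Nearest to Ercc8 were Dst (0.799), Mapk1ip1 (0.918) and Lekr1 (0.933), beside a median of 4.64. Each ranking picks the smallest distances of all genes, so their gap to the median is no test of likeness. A full split of the genotypes was shared by 4.64% of all genes in the direction of Xpa and 4.72% in that of Ercc8.

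Cell type markers gave the setting in which these levels were measured. In bulk tissue, fewer cells of a type and less RNA per cell cannot be told apart. The marker calls given here are over both sexes, where 11.8% of all genes were called higher and 9.8% lower. Lists this short cannot show a shift of a cell type beyond those shares. Hepatocyte markers dominated in all livers, with a summed level of 18640 to 31699 TPM over 5 genes in Het and 27176 to 44521 TPM in KO livers, of which 1 (Ttr) was called lower. Of 4 Kupffer cell and macrophage markers 2 were called higher (Vsig4 and Cd68), with sums of 19.9 to 57.1 TPM in Het and 29.3 to 90.4 TPM in KO livers. Of 3 sinusoidal endothelial markers 1 was called lower (Clec4g), with sums of 19.3 to 47.6 TPM in Het and 17.8 to 29.5 TPM in KO livers. Of 3 stellate cell markers 1 was called lower (Lrat), with sums of 28.8 to 69.6 TPM and 25.4 to 49.2 TPM. Among neutrophil markers S100a8 was called higher of 2 tested, with sums of 0.675 to 5.99 TPM in Het and 2.77 to 6.02 TPM in KO livers. None of 3 cholangiocyte markers (0.602 to 1.94 TPM in Het, 1.13 to 2.10 TPM in KO), 3 lymphocyte markers (1.95 to 5.79 TPM and 2.31 to 5.53 TPM) and 4 proliferation markers (0.613 to 1.78 TPM and 0.539 to 3.13 TPM) was called. The part of these markers' shifts in the levels of the repair genes was not tested.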

How the data were processed

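Total liver RNA was depleted of ribosomal RNA, made into stranded libraries and sequenced as paired-end reads. The authors aligned reads to GRCm39 with STAR 2.7.9a and quantified genes with Salmon 1.10.1 through an nf-core pipeline. The deposited estimated counts (12% of values are not whole) were rounded and used for all main results. The deposited TPM values keep no depth. They served for levels, effective lengths (count over TPM, scaled within each library by the median gene) and alternatives, as did the counts that the authors rebuilt from TPM.

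Genes with at least 5 reads in 3 samples were kept. Differences were tested with edgeR 4.0.16 (TMM, robust quasi-likelihood, prior count 2, 1 mean per group) in R 4.3.3. Alternatives used DESeq2 1.42.0, limma 3.58.1 on log2(TPM + 1) or log2(TPM + 0.1), other filters and scalings, and each mouse left out. Positions come from GENCODE M39 on the same build. The fit was also run on simulated counts with the same spread for every gene and no sex difference. That setting is simpler than the livers, so the run is no check of the calls given here.

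The genes and lists were chosen with earlier results of these data known. Outside the 10 genes, the text names up to 3 called genes per group or locus by smallest p, the 3 nearest profiles, and markers. Pold1, Pold2, Pold3, Polk, Ercc2, Stk19, Cdk7 and Ncbp1 were added after their values were seen. Each mouse is 1 sample.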

Additional observations from a re-analysis of the deposited data

How the results depend on the processing

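No paired analysis was possible because the sources used here do not say which mice shared a litter, and the mouse numbers in the labels are not shared between groups. Over both sexes, 6 of the 10 genes were called, and 4 to 6 under 24 alternatives. Xpa, Ercc8, Uvssa and Ercc3 were called in each of these. In females, where 4 were called, the count was 1 in a fit of the 6 female livers alone (Ercc8; Xpa at adjusted p = 0.0590), 2 by limma with either pseudocount, and 2 to 4 with a mouse left out. In males, where 3 were called, it was 5 by DESeq2 and 1 to 5 with a mouse left out. The cause of these shifts was not tested. With 0 called between the sexes, DESeq2 called 1 in Het livers, and leaving out single mice gave 0 to 1 in KO livers. The called neighbours, 6 in the main fit, numbered 3 with scaled counts, 1 by limma on log2(TPM + 1), 2 on log2(TPM + 0.1), and 4 to 8 with a mouse left out (8 without Het_F_115).

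Sign changes touched genes that were not called. With a mouse left out, Ercc6 ran from -0.051 (without KO_F_108) to 0.10 (without KO_F_123) over both sexes, from -0.077 to 0.22 in females (the same mice), and from -0.072 to 0.056 in males, where it was positive without Het_M_137 and KO_M_118. In males Ercc6 was also 0.000993 with the stricter filter, 0.040 by library size, and 0.021 and 0.026 by limma on log2(TPM + 1) and log2(TPM + 0.1). Ercc4 in females was -0.0042 with length-scaled counts and -0.048 and -0.062 by limma. Xpc in males was -0.0089 with length-scaled and -0.0022 with scaled counts, and -0.074 to 0.068 with a mouse left out. Ercc1 in males was 0.29 and 0.31 with those counts and 0.27 and 0.37 by limma. Xpa between the sexes in KO livers ran from -0.29 to 0.18 with a mouse left out, the positive value without KO_F_112. Depth limits Xpa in KO livers, which rests on 35 to 59 reads a library.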
